A study of Mus musculus with 12 samples.

Results

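A group of 10 mouse genes, Hspa13, Nrip1, Usp25, Btg3, Jam2, Gabpa, Ltn1, Usp16, Cct8 and Bach1, was chosen for its position. All are orthologs of genes at the proximal end of human chromosome 21 and lie below 88.3 Mb of mouse chromosome 16. Of these 10 symbols, 9 had an entry among the 35129 gene entries of the deposited count table. The 88.3 Mb limit came from a check of the table's entries against group values of the study, and the group was put together with earlier results of these data known. Ltn1 had no entry under its current symbol, and its older symbol Rnf160 is described separately.

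The data were fragment counts from cortical neurons of male mice aged 5 to 7 weeks and weighing about 20 g, which carried a subcutaneous mini pump for 14 days. Sst-neurons came from GIN mice on the FVB background, in which a Gad promoter fragment drives green fluorescent protein in a part of the somatostatin interneurons, and Thy1-neurons came from YFPH mice on the B6 background, in which the Thy1 promoter drives a yellow fluorescent protein (YFP) in pyramidal neurons of layer V. Within each cell type the pump delivered either saline (groups Sst and Thy1) or nicotine hydrogen tartrate at 48 mg/kg per day (groups Sst+Nic and Thy1+Nic). Fluorescent cells were aspirated by hand in lots of 10, and cDNA was amplified from the lysates before library construction. The analysis used 3 Sst, 2 Sst+Nic, 2 Thy1 and 3 Thy1+Nic libraries, with totals from 2915738 to 4878326 fragments, and 2 of the 12 libraries in the labels were not analysed here. Cell type and strain could not be told apart in any comparison of Sst- with Thy1-neurons, and fewer molecules per cell could not be told apart from fewer expressing cells. The labels do not tie libraries to single mice, so p-values measure the spread between libraries.

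The Sst gene, which marks the interneurons, was at 53779 to 126088 counts per 1000000 counts of the library (CPM) in the 5 libraries of Sst-neurons. It was at 1.15 to 49.2 CPM in 4 libraries of Thy1-neurons and at 3795 CPM in Thy1 replicate 3, so the differences of the 9 genes between Thy1 and Sst or Thy1+Nic are also given without that library where they were tested. For Rnf160, the mean over both treatments and most genes of the wider lists they are not. The neuronal genes Gap43 and Tagln3 summed to 5570 to 10776 CPM in the 10 libraries. The endothelial markers Cldn5 and Heg1 summed to at most 35.7 CPM, and the microglial markers Cd86, Hcls1 and Cd200r1 to at most 52.9 CPM, both reached in a library of the Sst group. Mitochondrially encoded genes took 16.3 to 22.1% of the counts in Sst-neurons and 31.4 to 38.5% in Thy1-neurons, a difference that bears on CPM because CPM divides by the total.

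Human chromosome 21 is present in an extra copy in Down syndrome, and a large part of its gene order is kept on mouse chromosome 16. The segmental trisomy of the Ts65Dn mouse, a model of Down syndrome, begins between Btg3 and Jam2, so Jam2, Gabpa, Ltn1, Usp16, Cct8 and Bach1 lie inside the triplicated segment and Hspa13, Nrip1, Usp25 and Btg3 lie outside it. The genes fall into 3 functional groups. Bach1, Gabpa, Nrip1 and Btg3 act on transcription or proliferation, Usp25, Usp16 and Ltn1 on ubiquitin, and Cct8 and Hspa13 on protein folding, with Jam2 as a cell adhesion gene beside them. The labels name no trisomic mouse.

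On chromosome 16 of GRCm38, RefSeq places Hspa13 (Entrez 110920) at chr16:75755190-75767276 on the minus strand, Nrip1 (268903) at chr16:76287403-76373827 on the minus strand and Usp25 (30940) at chr16:77013684-77116783 on the plus strand. Btg3 (12228) follows at chr16:78359860-78377181 on the minus strand, and Jam2 (67374) and Gabpa (14390) lie next to each other on the plus strand at chr16:84774123-84826380 and chr16:84834891-84863783. Usp16 (74112) at chr16:87454985-87483515 on the plus strand and Cct8 (12469) at chr16:87483325-87495869 on the minus strand meet tail to tail, and Bach1 (12013) lies at chr16:87698954-87733346 on the plus strand. Exons of Usp16 and Cct8 overlap by 192 bases, which is 5.99% of the exon length of Usp16 and 8.01% of that of Cct8. Exons of Gabpa overlap those of Atp5j on the opposite strand by 182 bases. Whether fragments were counted by strand is not given in the sources used here, so fragments in these overlaps could have been counted for either gene.

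Promoter sequence was available from RefSeq (GRCm38) for 7 of the 9 genes, and not for Hspa13 and Jam2. The ETS core CCGGAAG, read on both strands (CTTCCGG), was found within 250 bases before the start that the promoter table lists for Gabpa, Usp16 and Cct8, against 7.05% of the 27025 mouse promoters searched. It is the motif to which Gabpa, itself an ETS factor, is known to bind. The listed start of Gabpa lies inside the gene span given above, so its window (chr16:84834874-84835123) lies mostly and its site wholly within that span, with 150 of the 250 bases in annotated exons of Gabpa and Atp5j. For Usp16 all 250 bases, and for Cct8 51, lie in annotated exons (GENCODE vM21). Of the 7 motifs searched on both strands, the Gabpa window also held YY1 (AAGATGGCG, in 0.607% of promoters). The Cct8 window also held the Sp1/KLF box (GGGCGG, in 32.9% of promoters). The 3 ETS sites are shown with 10 bases on either side, the core in capitals. They were picked because the motif is that of a transcription factor that is itself in the group.
Gabpa, chr16:84835021-84835047, minus strand: gctgagggacCCGGAAGcacttaccct
Usp16, chr16:87454963-87454989, plus strand: atgccgcgttCCGGAAGttgcctctcc
Cct8, chr16:87495890-87495916, minus strand: ggcggggcgaCCGGAAGtagggggacg

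The genes with the widest separation between the cell types were Bach1 and Btg3, in opposite directions, and the 250 bases before their starts are shown for that reason. The Bach1 window holds 3 copies of the Sp1/KLF box GGGCGG (or CCGCCC), in capitals, a motif present in 32.9% of promoters, and 25 CpG dinucleotides, a number that 90.8% of promoters do not exceed. The Btg3 window holds 1 CCAAT box, here as ATTGG in capitals and present in 34.5% of promoters, and 7 CpG dinucleotides against a median of 6. With both strands read, neither window holds the ETS core or a CRE (TGACGTCA). The AP-1 site TGAGTCA was likewise not in either window. Nor did either hold the TATA box TATAAA or, as the last of the motifs searched, the YY1 motif AAGATGGCG. These matches are descriptions of letters in a window, and no binding was measured.
Bach1, chr16:87698704-87698953, plus strand: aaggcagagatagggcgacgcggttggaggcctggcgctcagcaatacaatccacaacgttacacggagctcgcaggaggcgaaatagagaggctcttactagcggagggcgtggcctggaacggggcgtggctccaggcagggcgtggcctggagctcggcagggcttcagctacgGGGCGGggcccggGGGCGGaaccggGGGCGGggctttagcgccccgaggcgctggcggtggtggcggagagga
Btg3, chr16:78377182-78377431, minus strand: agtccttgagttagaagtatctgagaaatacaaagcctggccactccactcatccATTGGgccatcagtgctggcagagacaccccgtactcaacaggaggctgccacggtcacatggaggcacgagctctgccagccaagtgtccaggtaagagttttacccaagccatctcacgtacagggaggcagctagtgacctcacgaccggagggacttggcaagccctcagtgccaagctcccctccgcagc

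Per kilobase of exon, Cct8 had the highest level in every group, with 553 ± 116 CPM per kb in Sst (SD, n = 3), 629 ± 153 in Sst+Nic (n = 2), 271 ± 66.1 in Thy1 (n = 2) and 275 ± 124 in Thy1+Nic (n = 3). The other genes were far below it. Hspa13 followed in Sst with 56.6 ± 16 CPM per kb (SD, n = 3) and in Sst+Nic with 62.6 ± 23.1 (SD, n = 2), whereas in Thy1 the levels of Usp16, Hspa13 and Btg3 were 39.6 ± 2.65, 39.3 ± 7.72 and 35.4 ± 10.6 CPM per kb (SD, n = 2) and did not differ beyond their spread. Bach1 was next to last in Thy1, at 0.219 ± 0.243 CPM per kb (SD, n = 2), and Jam2 was last in all 4 groups. Exon lengths came from GENCODE vM21 and may differ from the annotation used for counting.

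**Figure D1:**
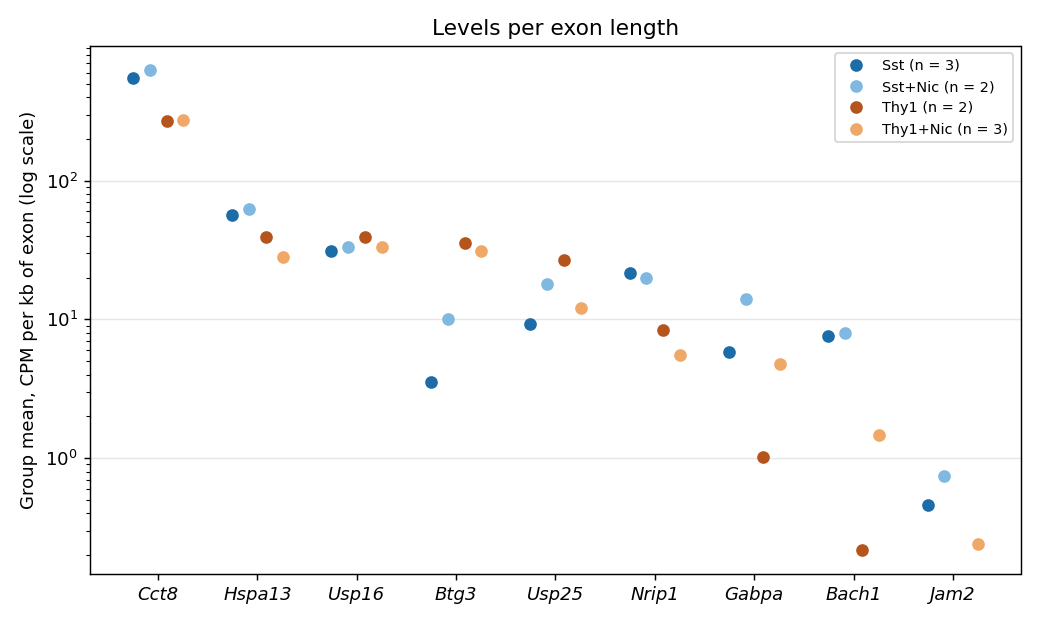
Group mean level of the 9 genes in CPM per kb of exon (log scale), with 1 point per group and the number of libraries in the legend. Cct8 lies above all other genes in every group, from 271 to 629 CPM per kb, and Jam2 lies lowest, where the Thy1 mean of 0 cannot be drawn on a log axis.

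In the absence of nicotine, the comparison of Sst with Thy1 asked which genes differ between interneurons and pyramidal neurons. The filter on low counts kept 8 of the 9 genes (not Jam2). Of these 8, 5 had positive and 3 had negative log2 fold changes in Sst vs. Thy1, with a median of 0.59 against 0.05 for all entries. None was called at an adjusted p-value under 0.05 (edgeR quasi-likelihood test, Benjamini-Hochberg over all 6350 entries tested) with an absolute log2 fold change above 1, where 1.72% of all entries were called. The study, which used EBSeq, lists Bach1 and Btg3 among the genes that differed between Sst and Thy1 without nicotine. At an unadjusted p-value under 0.05 there were 5 of 8 genes, against 16.3% of all entries and 23.1% of the 566 position-checked entries. Those are the mitochondrially encoded genes and chromosome stretches that passed a comparison with group values of the study, for Sst and Thy1+Nic only. The median of the position-checked entries was -0.09. The CPM of the 3 Sst and 2 Thy1 libraries did not overlap for 6 of the 8 genes, against 35.3% of all entries, with Bach1, Gabpa and Cct8 higher in Sst (20% of entries) and Btg3, Usp25 and Usp16 lower (15.3% of entries).

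In the presence of nicotine, Sst+Nic and Thy1+Nic were compared in libraries that share none with the saline comparison. All 9 genes passed the filter, 7 had positive and 2 negative log2 fold changes, and the median was 0.71 against 0.09 for all entries. Again 0 of 9 were called (edgeR, 6509 entries), where 0.507% of all entries were called, and 2 of 9 had an unadjusted p-value under 0.05 against 15.8% of all entries and 22.7% of position-checked entries, whose median was -0.18. The CPM did not overlap for 5 of 9 genes, against 39% of all entries, with 4 genes higher in Sst+Nic (30.3% of entries) and 1, Btg3, lower (8.66% of entries). Of the 8 genes tested in both comparisons, 7 had the same sign in both, against 65.1% of the 5448 entries tested in both. The exception was Usp25, whose log2 fold change with nicotine ran from -0.22 to 0.39 with 1 library left out, so its sign there was not stable.

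**Figure D2:**
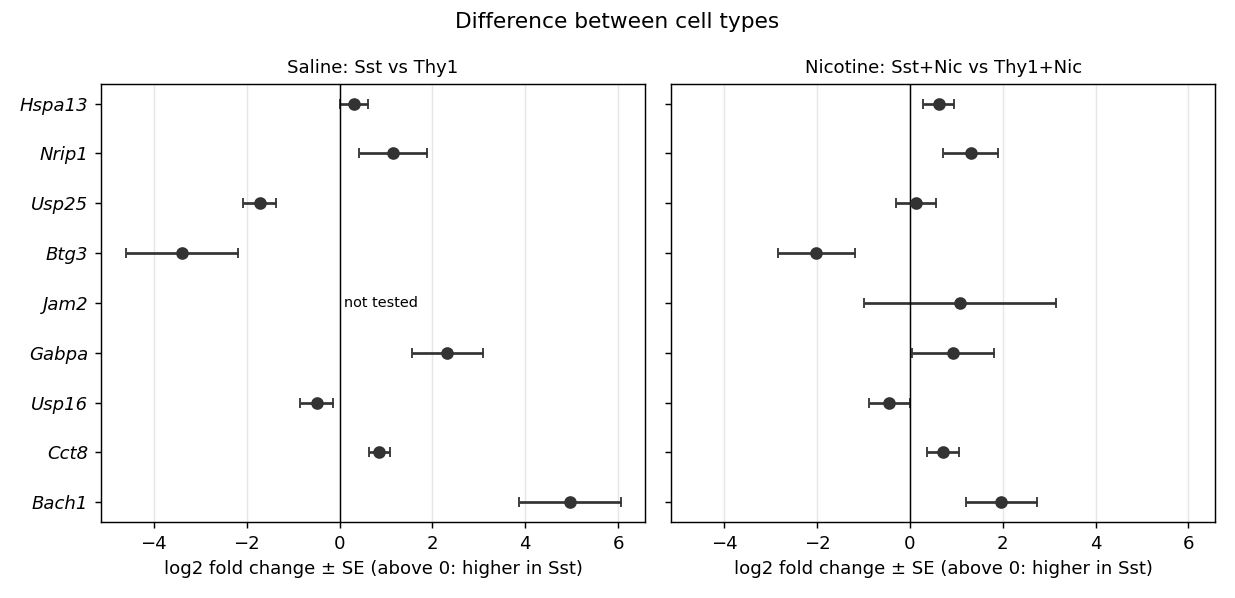
Log2 fold change between Sst- and Thy1-neurons with saline (left) and with nicotine (right) for each gene. Bars are the standard error derived from the F statistic of the edgeR test, and values above 0 are higher in Sst-neurons. Bach1, Gabpa, Cct8, Nrip1 and Hspa13 lie above 0 and Btg3 and Usp16 below 0 in both panels, Usp25 lies at -1.71 and 0.13, and 0 of the differences passed the threshold on the adjusted p-value.

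Bach1 encodes a heme-responsive transcriptional repressor of antioxidant genes. It was at 30.1, 36.5 and 66.1 CPM in Sst replicates 1, 2 and 3 and at 32.9 and 61.1 CPM in Sst+Nic replicates 2 and 3. In Thy1 replicates 2 and 3 it was at 2.29 and 0.275 CPM, from 8 counts and 1 count, and in Thy1+Nic replicates 1, 2 and 3 at 13.5, 5.44 and 7.07 CPM. Every library of Sst-neurons was thus above every library of Thy1-neurons, with the closest values at 30.1 and 13.5 CPM. Over all 10 libraries, 3 of the 9 genes were separated in this way in CPM, against 8.46% of the 8242 entries tested. Bach1 and Cct8 were higher in Sst-neurons (5.33% of entries) and Btg3 was lower (3.13% of entries).

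The log2 fold change of Bach1 in Sst vs. Thy1 was 4.96 (standard error derived from the F statistic, SE, 1.09, edgeR adjusted p = 0.0848). In Sst+Nic vs. Thy1+Nic it was 1.97 (SE 0.76, edgeR adjusted p = 0.267) and 1.26 without Sst+Nic replicate 3. When the mean of both differences was tested in 1 edgeR fit of all 10 libraries, a contrast chosen after the values were seen, Bach1 was the only one of the 9 genes called, with a log2 fold change of 3.47 (SE 0.66, edgeR adjusted p = 0.00851), where 4.95% of all entries were called. Bach1 was also called in Sst vs. Thy1 by DESeq2 (adjusted p = 5.75e-05) and by edgeR without a filter (0.000481), with at least 10 counts in a library (0.0204), and by a single edgeR fit of all libraries (0.0321). Without Thy1 replicate 3, which held Sst transcripts, the log2 fold change was 4.17 (adjusted p = 0.296, edgeR), with Thy1 replicate 2 as the only Thy1 library. Without Thy1 replicate 2, which leaves the library with 1 Bach1 fragment, it was 6.90.

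Btg3, an antiproliferative protein of the BTG/TOB family, had the opposite pattern. It was at 2.49, 12.0 and 0.540 CPM in Sst replicates 1, 2 and 3, from 10, 47 and 2 counts, and at 4.8 and 23.6 CPM in Sst+Nic replicates 2 and 3. In Thy1 replicates 2 and 3 it was at 39.5 and 60.7 CPM, and in Thy1+Nic replicates 1, 2 and 3 at 54.7, 29.3 and 47.1 CPM. All libraries of Thy1-neurons were above all libraries of Sst-neurons, although the 5 libraries of Sst-neurons differed widely among themselves. In Sst the Btg3 entry reached only 51.1% of the group value of the study, and the bearing of this on the difference was not tested. The log2 fold change was -3.40 (SE 1.21, edgeR adjusted p = 0.231) with saline and -2.01 (SE 0.83, edgeR adjusted p = 0.296) with nicotine. It was called in Sst vs. Thy1 only in edgeR without a filter (adjusted p = 0.00665), and the mean of both differences was -2.71 with an adjusted p-value of 0.0666. Without Sst replicate 2, which was the highest of the Sst libraries, the log2 fold change with saline was -5.37 (adjusted p = 0.124, edgeR). With nicotine it was -1.26 without Sst+Nic replicate 2 and -3.82 without Sst+Nic replicate 3 (edgeR adjusted p = 0.689 and 0.145).

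Gabpa is the DNA-binding subunit of an ETS factor that acts on nuclear genes for mitochondrial proteins. It was at 36.1, 23.5 and 30.0 CPM in Sst replicates 1, 2 and 3 and at 4.58 and 5.77 CPM in Thy1 replicates 2 and 3, without overlap. With nicotine it was at 104 and 39.2 CPM in Sst+Nic replicates 2 and 3 and at 9.21, 52.7 and 10.9 CPM in Thy1+Nic replicates 1, 2 and 3. Thy1+Nic replicate 2 was thus above Sst+Nic replicate 3, and the groups overlapped. The log2 fold changes were 2.32 (SE 0.77, edgeR adjusted p = 0.202) with saline and 0.92 (SE 0.89, edgeR adjusted p = 0.765) with nicotine, and the latter was 0.23 without Sst+Nic replicate 2 (edgeR adjusted p = 0.973) and 2.36 without Thy1+Nic replicate 2 (adjusted p = 0.228, edgeR). DESeq2 called Gabpa in Sst vs. Thy1 (adjusted p = 0.0281).

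Nrip1, a corepressor of nuclear receptors, was at 336, 91.8 and 91.0 CPM in Sst replicates 1, 2 and 3 and at 109 and 26.9 CPM in Thy1 replicates 2 and 3. Sst replicate 1 stood above all other libraries, and the remaining Sst libraries lay between the Thy1 libraries. With nicotine it was at 144 and 175 CPM in Sst+Nic and at 74.9, 40.2 and 19.7 CPM in Thy1+Nic, without overlap. The log2 fold changes were 1.15 (SE 0.74) and 1.31 (SE 0.60), with adjusted p-values of 0.539 and 0.349 (edgeR). The difference with saline was 0.36 without Sst replicate 1, 0.48 without Thy1 replicate 3 and 2.29 without Thy1 replicate 2.

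Among the ubiquitin genes, Usp25 encodes a deubiquitinase. It was at 57.9, 32.9 and 42.6 CPM in Sst replicates 1, 2 and 3 and at 150 and 108 CPM in Thy1 replicates 2 and 3, so that all Sst libraries lay below both Thy1 libraries. With nicotine the same gene was at 76.1 and 96.1 CPM in Sst+Nic replicates 2 and 3 and at 54.7, 41.1 and 76.3 CPM in Thy1+Nic replicates 1, 2 and 3, and the groups overlapped. The log2 fold change was -1.71 with saline (SE 0.36, edgeR adjusted p = 0.0742) and 0.13 with nicotine (SE 0.44, edgeR adjusted p = 0.968). With 1 library left out it ran from -1.89 to -1.61 with saline and from -0.22 to 0.39 with nicotine. DESeq2 (adjusted p = 0.000342), edgeR without a filter (0.0213) and edgeR with at least 10 counts in a library (0.0436) called Usp25 in Sst vs. Thy1. These 3 settings called 8.68%, 3.28% and 2.89% of all entries, and the fit of all libraries, which called Bach1 alone of the 9 genes, called 1.97%.

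Usp16, which removes ubiquitin from histone H2A, was the most even of the 9 genes over the 10 libraries. Its CPM ranged from 68.8 in Thy1+Nic replicate 1 to 157 in Thy1+Nic replicate 3, with medians of 96.0 in Sst, 107 in Sst+Nic, 127 in Thy1 and 94.1 in Thy1+Nic. Its coefficient of variation was 23.9%, lower than that of most of the 951 entries whose mean CPM was within 2-fold of its own, which had a median of 40.6%. The 3 Sst libraries lay below both Thy1 libraries, with 120 against 121 CPM as the closest pair, and they overlapped when CPM was divided by TMM factors. The log2 fold changes were -0.49 (SE 0.35) and -0.44 (SE 0.44), with adjusted p-values of 0.596 and 0.783 (edgeR). With saline it was -0.78 without Sst replicate 2 and -0.34 without Thy1 replicate 3, and with nicotine -0.83 without Sst+Nic replicate 3 and -0.16 without Sst+Nic replicate 2 or Thy1+Nic replicate 3.

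Ltn1 encodes listerin, a ubiquitin ligase of ribosome quality control, and its older symbol Rnf160 names an entry of the table. This entry was at 127, 78.8 and 70.7 CPM in Sst replicates 1, 2 and 3, at 177 and 78.3 CPM in Sst+Nic, at 109 and 144 CPM in Thy1 and at 44.3, 93.3 and 97.2 CPM in Thy1+Nic. The groups overlapped in both comparisons of cell types. The log2 fold changes were -0.66 (SE 0.36) with saline and 0.16 (SE 0.49) with nicotine, with adjusted p-values of 0.444 and 0.962 (edgeR).

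Cct8, the theta subunit of the chaperonin TRiC that folds actin and tubulin, was at 1566, 1021 and 1392 CPM in Sst replicates 1, 2 and 3 and at 761 and 537 CPM in Thy1 replicates 2 and 3. With nicotine it was at 1767 and 1249 CPM in Sst+Nic replicates 2 and 3 and at 613, 389 and 977 CPM in Thy1+Nic replicates 1, 2 and 3. All libraries of Sst-neurons were above all libraries of Thy1-neurons, but the lowest of the former and the highest of the latter were close, at 1021 and 977 CPM. The log2 fold change was 0.86 (SE 0.22, edgeR adjusted p = 0.126) with saline and 0.71 (SE 0.35, edgeR adjusted p = 0.384) with nicotine. With nicotine it was 0.50 without Thy1+Nic replicate 2 and 1.02 without Thy1+Nic replicate 3. The mean of both was 0.78 (SE 0.21, edgeR adjusted p = 0.0546), and DESeq2 gave an adjusted p-value of 0.00228 with saline, at a log2 fold change of 0.80 that did not reach the threshold of 1.

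Separation of the cell types was also read on scales that do not rest on mitochondrial counts. As CPM of nuclear counts, which leave out the mitochondrially encoded genes, Cct8 overlapped, with 1310 in its lowest library of Sst-neurons and 1488 in its highest library of Thy1-neurons. Bach1 (38.3 against 19.7) and Btg3 (29.4 in the highest library of Sst-neurons against 47.7 in the lowest of Thy1-neurons) stayed separate on this scale, which separates 8.14% of entries. With TMM factors all 3 genes were separate, against 8.19% of entries. With saline 6 of 8 genes were separate in nuclear counts (34.5% of entries) and 5 of 8 with TMM factors (35.1% of entries), and with nicotine 5 of 9 genes were separate on either scale (35.6% and 34.6% of entries).

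Hspa13 encodes a microsomal member of the Hsp70 family. It was at 320, 183 and 231 CPM in Sst replicates 1, 2 and 3, at 341 and 200 CPM in Sst+Nic, at 146 and 194 CPM in Thy1 and at 139, 96.2 and 131 CPM in Thy1+Nic. The cell types overlapped with saline and not with nicotine. The log2 fold changes were 0.32 (SE 0.30) and 0.62 (SE 0.34), with adjusted p-values of 0.727 and 0.464 (edgeR). With saline it was 0.14 without Sst replicate 1, -0.00037 without Thy1 replicate 2 and 0.62 without Thy1 replicate 3, and with nicotine it was 0.33 without Sst+Nic replicate 2 and 0.83 without Sst+Nic replicate 3.

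Jam2, a junctional adhesion molecule known from endothelial cells, was near the limit of detection. It had 0, 7 and 24 counts in Sst replicates 1, 2 and 3, 16 and 17 counts in Sst+Nic, 0 in both Thy1 libraries and 14, 0 and 1 counts in Thy1+Nic, at most 6.48 CPM. A count of 0 allows up to 0.859 and 0.824 CPM in Thy1 replicates 2 and 3, counting error only. The endothelial markers Cldn5 and Heg1 were also low, with 9 of their 20 values at 0, and their part in the Jam2 values was not tested.

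**Figure D3:**
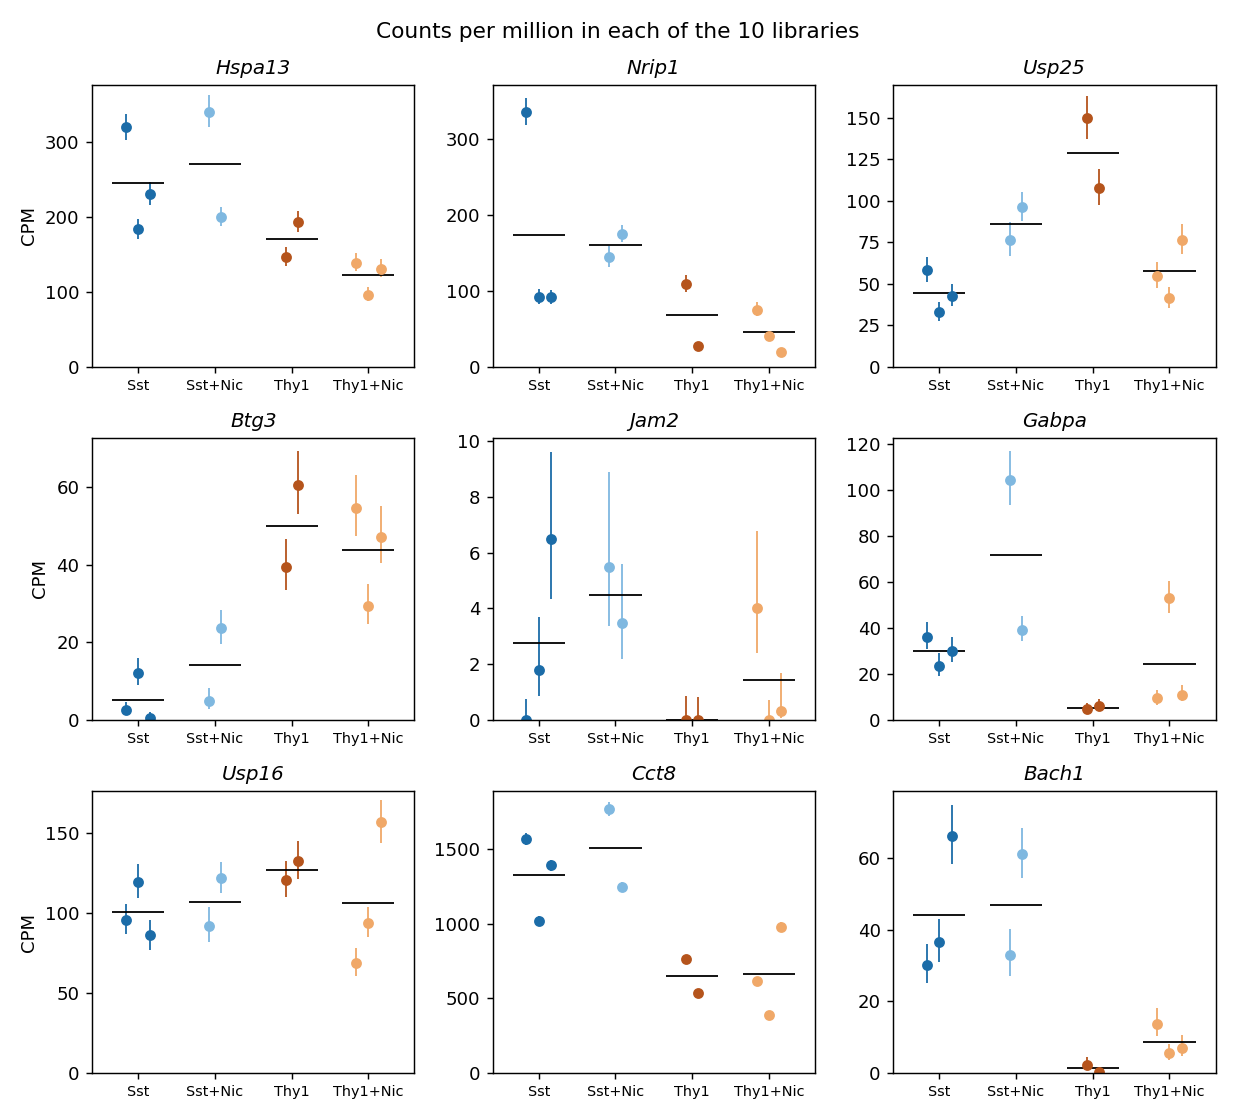
CPM of each of the 9 genes in each of the 10 libraries, by group, with 95% Wilson intervals (for a count of 0, up to 3 counts) as bars for counting error and a black line for the group mean; each panel has its own axis from 0. Bach1 and Cct8 are higher and Btg3 is lower in all 5 libraries of Sst-neurons than in all 5 of Thy1-neurons, and Usp25 is higher with nicotine in Sst-neurons and lower in Thy1-neurons.

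Without Thy1 replicate 3, the library that held Sst transcripts, all 8 log2 fold changes of Sst vs. Thy1 kept their sign. They were 4.17 for Bach1, 2.58 for Gabpa, 0.69 for Cct8, 0.62 for Hspa13 and 0.48 for Nrip1, and -2.94 for Btg3, -1.87 for Usp25 and -0.34 for Usp16, with 0 of 8 called. Hspa13 (0.32 with all libraries) and Nrip1 (1.15) moved most in proportion. In Thy1+Nic vs. Thy1 the values without this library were 2.71 for Gabpa, 2.12 for Bach1, -1.02 for Nrip1 and -1.19 for Usp25, and Hspa13 went from -0.39 to -0.053. Btg3, Usp16 and Cct8 changed sign there, to 0.35, 0.0069 and -0.033, and again 0 of 8 were called.

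The effect of nicotine was compared within each cell type. In Sst-neurons 0 of 9 genes were called (edgeR, 6689 entries), as were 0% of all entries, with 0 of 9 genes and 280 entries (4.19%) at an unadjusted p-value under 0.05. DESeq2 called 16 entries and none of the 9 genes. In Thy1-neurons 0 of 8 genes were called (edgeR, 6048 entries), as were 0% of all entries, with 1 of 8 genes (Usp25) and 264 entries (4.37%) at an unadjusted p-value under 0.05. DESeq2 called 14 entries there and none of the 9 genes. The log2 fold changes of the 9 genes lay between -0.24 and 1.24 in Sst-neurons, and those of the 8 genes between -1.07 and 2.89 in Thy1-neurons. Both ends of the range in Sst-neurons changed sign with 1 library left out. Nrip1 (-0.24) ran from -0.55 to 0.52 and Btg3 (1.24) from -0.55 to 3.21.

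In Sst-neurons the CPM values with nicotine were separate from those with saline for 2 of 9 genes, against 20.8% of entries. These were Usp25 and Gabpa, both higher with nicotine (16% of entries) and none lower (4.78% of entries). In Thy1-neurons 4 of 8 genes were separate, against 20.9% of entries, with Gabpa and Bach1 higher (7.18% of entries) and Usp25 and Hspa13 lower with nicotine (13.7% of entries). With TMM factors Hspa13 overlapped there, and 3 of 8 genes were separate (20.8% of entries). In Gabpa the spread within the nicotine groups was large, since Sst+Nic replicate 2 (104 CPM) and Thy1+Nic replicate 2 (52.7 CPM) stood far above the other library or libraries of their groups. Its log2 fold changes were 1.01 (SE 0.52) in Sst-neurons and 2.39 (SE 1.07) in Thy1-neurons, where the former was 0.30 without Sst+Nic replicate 2 and the latter 1.0 without Thy1+Nic replicate 2. Both Thy1 libraries held few Bach1 fragments (8 and 1), and its log2 fold change of 2.89 in Thy1-neurons had a standard error of 1.55 and ran from 2.12 without Thy1 replicate 3 to 4.84 without Thy1 replicate 2.

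Usp25 was the gene of this group whose nicotine and saline libraries were separate in CPM in both cell types, in opposite directions, while Btg3, Bach1 and Cct8 also had log2 fold changes of opposite sign but overlapped in at least 1 cell type. Relative to saline the log2 fold change of Usp25 was 0.78 in Sst-neurons (SE 0.42, edgeR unadjusted p = 0.107, 0.43 without Sst+Nic replicate 3 and 1.02 without Sst+Nic replicate 2) and -1.07 in Thy1-neurons (SE 0.37, edgeR unadjusted p = 0.0209). The interaction, that is the difference between both, was 1.83 (SE 0.57, edgeR unadjusted p = 0.00721, adjusted p = 0.672 over 8242 entries), and it did not pass the threshold. In CPM every nicotine library lay above every saline library in Sst-neurons and below in Thy1-neurons, a pattern shown by 1 of the 9 genes and by 2.04% of entries. For Bach1 the interaction was -3.0 (SE 1.25, edgeR unadjusted p = 0.0335, adjusted p = 0.672), and it ran from -2.21 without Thy1 replicate 3 to -4.96 without Thy1 replicate 2. In this fit 0 of 9 genes and 0% of entries were called, with 2 of 9 genes and 605 entries (7.34%) at an unadjusted p-value under 0.05, and DESeq2 called 7 entries and none of the 9 genes.

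**Figure D4:**
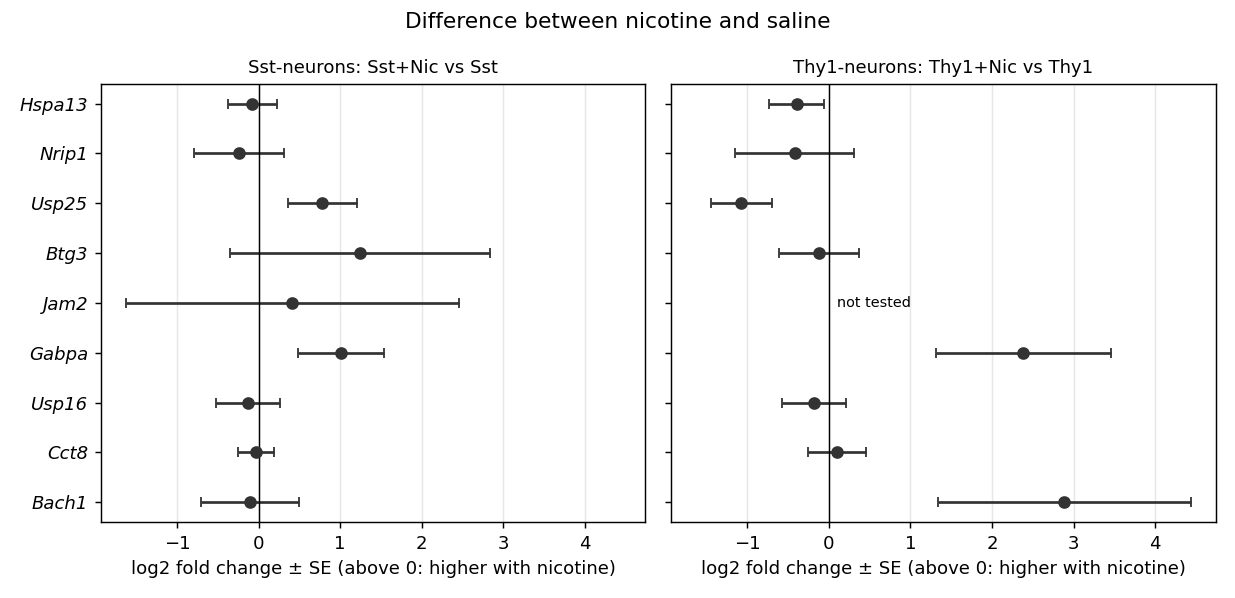
Log2 fold change between nicotine and saline in Sst-neurons (left) and Thy1-neurons (right) for each gene. Bars are the standard error derived from the F statistic of the edgeR test, and values above 0 are higher with nicotine. Usp25 lies at 0.78 on the left and at -1.07 on the right, Gabpa lies above 0 in both, and none of the differences passed the threshold.

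A list of 18 other orthologs of proximal human chromosome 21 in the same stretch, chosen by position, gave a wider frame. In Sst vs. Thy1, 11 of the 18 were tested, of which 5 were positive and 6 negative with a median log2 fold change of -0.46. At an unadjusted p-value under 0.05 there were 5 of 11 genes, against 16.3% of all entries and 23.1% of position-checked entries, and 1 was called (1.72% of entries). This was Rwdd2b, at 30.4 to 105 CPM in Sst and at 0 and 0.286 CPM in Thy1, with a log2 fold change of 8.16 (SE 1.24, edgeR adjusted p = 0.0279). This fitted value rests on 1 fragment in the Thy1 libraries, depends on the prior count and is no bound. With any 1 of the 5 libraries left out Rwdd2b was not called (adjusted p = 0.0658 to 0.101), nor with the replicate number as a block (adjusted p = 0.0671). With nicotine, 10 were tested, 5 were positive and 5 negative with a median of -0.17, 0 were called and 3 had an unadjusted p-value under 0.05, against 15.8% of all entries. For Rwdd2b the difference with nicotine was -1.0 (edgeR adjusted p = 0.621).

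DESeq2 called 3 of the 11 genes with saline (Rwdd2b, Adamts5 and Grik1), against 8.68% of all entries, and 3 of the 10 with nicotine (Adamts5, Grik1 and N6amt1), against 7.62% of all entries. Adamts5, a secreted protease of the extracellular matrix, was at 60.5 to 107 CPM in the 5 libraries of Sst-neurons and at 0 to 19.5 CPM in the 5 of Thy1-neurons. Grik1, a subunit of kainate receptors, was at 45.7 to 125 CPM in Sst-neurons and at 0 to 10.4 CPM in Thy1-neurons. Neither gene, both named because DESeq2 called them, overlapped between the cell types over the 10 libraries, and the same held for 8.46% of entries. Adamts5 had log2 fold changes of 2.67 with saline and 6.25 with nicotine (edgeR adjusted p = 0.189 and 0.105), and Grik1 of 4.10 and 3.71 (edgeR adjusted p = 0.219 and 0.226), with 2 libraries of Thy1-neurons at 0 in each gene. Of the Adamts5 fragments in Thy1, 71 were in replicate 3 and 12 in replicate 2. N6amt1, a methyltransferase, was at -0.82 and -1.89 (edgeR adjusted p = 0.422 and 0.149). For the mean of both differences, chosen after the values were seen, edgeR called 4 of 11 genes (Rwdd2b, Adamts5, Grik1 and N6amt1), where 4.95% of all entries were called. With saline and without Thy1 replicate 3, edgeR called Grik1 alone (adjusted p = 0.0468), with the remaining Thy1 library at 0. Without a filter edgeR called 3 of 13 genes with saline (3.28% of entries) and 2 of 13 with nicotine (2.65%). Asking for at least 10 counts it called 1 of 12 (2.89%) and 2 of 11 (2.91%), and in a single fit of all libraries 1 of 11 (1.97%) and 1 of 11 (1.27%).

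Between nicotine and saline and in the interaction 0 of the tested genes of this list were called by edgeR with its filter, with 2 of 11 in Sst-neurons (4.19% of entries), 1 of 11 in Thy1-neurons (4.37%) and 2 of 11 in the interaction (7.34%) at an unadjusted p-value under 0.05. DESeq2 called 0, 1 and 1 of 11 there, against 0.239%, 0.231% and 0.0849% of entries. The gene called in Thy1-neurons and in the interaction was Rwdd2b, which was at 27.6, 19.4 and 63.6 CPM in Thy1+Nic against 0.286 and 0 CPM in Thy1. In both, edgeR also called Rwdd2b once the filter was removed (0.0988% and 0.219% of entries called) or asked for 10 counts in any library (0.0793% and 0.243%), and in the interaction without Sst+Nic replicate 2 (adjusted p = 0.0434) or Thy1 replicate 2 (0.0402).

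A list of 7 genes related to the group in family or function, from elsewhere on chromosome 16, was read in the same way. In Sst vs. Thy1, 6 were tested and 1 was called (1.72% of entries), the ETS factor Etv5, which was lower in Sst-neurons at 72.1 to 147 CPM than in Thy1-neurons at 406 and 447 CPM. Its log2 fold change was -2.30 (SE 0.32, edgeR adjusted p = 0.0221) with saline and -2.01 (SE 0.51, edgeR adjusted p = 0.138) with nicotine, opposite in sign to the ETS factor Gabpa in both comparisons. The call with saline was lost without Sst replicate 2 (adjusted p = 0.1005), Sst replicate 3 (0.0658), Thy1 replicate 2 (0.0597) or Thy1 replicate 3 (0.101), and with totals in place of TMM (0.0595). The deubiquitinase Usp7 was at -0.69 and -0.87, the ubiquitin ligase component Fbxo45 at -0.56 and -0.78 and the ubiquitin ligase Rnf168 at 1.26 and -0.60 on the log2 scale. The Hsp70 partners Dnajb11 and Dnaja3 were at 0.56 and 0.84 and at -0.02 and -0.31, and Cldn5 was tested with nicotine alone, at -0.31. None of these 6 passed the threshold of edgeR in either comparison, and DESeq2 called 2 of the 6 genes tested with saline (Etv5 and Rnf168, 8.68% of entries) and 1 of 7 with nicotine (Etv5, 7.62% of entries). With nicotine edgeR also called Etv5 without a filter (adjusted p = 0.000825) and with at least 10 counts (0.0118). In Sst+Nic vs. Sst, Thy1+Nic vs. Thy1 and the interaction edgeR called 0 of 7 genes of this list, with 0, 1 (Cldn5) and 1 (Rnf168) at an unadjusted p-value under 0.05, against 4.19%, 4.37% and 7.34% of entries. DESeq2 called 0, 0 and 1 of 7, the last being Cldn5, which was at 0 in 6 of the 10 libraries.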

How the data were processed

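Cortical Sst- and Thy1-neurons from saline- and nicotine-treated mice were compared by RNA sequencing. The authors trimmed paired-end reads, aligned them to GRCm38 with TopHat and deposited raw fragment counts per gene entry; HTSeq is named in the submitters' processing notes, and the annotation is not given in the sources used here. CPM was the count divided by the library total, with 95% Wilson intervals or, for a count of 0, an upper limit of 3 counts (0.615 to 1.03 CPM), both for counting error only. Counts were tested with edgeR 4.0.16 in R 4.3.3 (quasi-likelihood test, TMM, filterByExpr with a minimum count of 10). A run on simulated counts was required to recover only the sign and median size of large changes, not the calls. The SE was the absolute log2 fold change divided by the square root of the F statistic of the edgeR test. It is thus a derived value, not one reported by the fit. Calls needed an adjusted p-value (Benjamini-Hochberg, all entries tested) below 0.05 with a log2 fold change beyond 1 in either direction. DESeq2 1.42.0, other scalings and filters, the replicate block and each library left out were alternatives.

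Many entries did not hold the level of the gene they name when set against group values of the study, so nuclear genes are named only from the stretch of chromosome 16 up to 88.3 Mb. That stretch was drawn as the run of genes at 0.3 to 3 times those values, so this range was set by the rule. Of its 39 values, from 36 genes, 16 were within 1%, which leaves the other entries less certain. The values compared were those of Sst and Thy1+Nic, and none of Thy1 or Sst+Nic was checked. Of the 9 genes, Bach1 (98.3%) and Btg3 (51.1%) could be compared directly, in Sst, and the others rest on their neighbours. Both values came from the study's own list of genes differing between Sst and Thy1 without nicotine. All genes of the group, the genes of the region list called by edgeR or DESeq2 and all tested genes of the relatives list are named. Members and lists were chosen with earlier results of these data known.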

Additional observations from a re-analysis of the deposited data

Results flagged for a closer look

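Usp25 was singled out because nicotine and saline separated its libraries in opposite directions in the 2 cell types. The interaction of nicotine and cell type was 1.83 on the log2 scale (standard error 0.57, unadjusted p = 0.00721, adjusted p = 0.672, edgeR), so the difference between the cell types was tested and did not pass the threshold over 8242 entries. Under the alternatives that kept all libraries the interaction was 1.82 to 2.12, with adjusted p-values from 0.146 upward, and with 1 library left out it was 1.53 to 2.10. No group held 4 or more libraries, so single outlying libraries were not tested.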

How the results depend on the processing

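For Sst vs. Thy1 the edgeR fit of the 2 groups called 0 of the 9 genes, where 1.72% of all entries were called. DESeq2 called 3 of them (8.68% of entries), and edgeR called 3 once the filter was removed (3.28%). Asking for 10 counts or more in any library, edgeR called 2 (2.89%), and a single fit of all libraries called 1 (1.97%). The number of the 9 genes called was also 1 for the mean over both treatments (4.95%), a contrast chosen after the results were seen. It was 0 with each library left out, with the replicate block and under the other alternatives, and 0 in the other 4 comparisons under every alternative run. Over all 5 comparisons 646 log2 fold changes of single genes were recomputed, of which 588 kept their sign and their side of the threshold, 10 passed it and 48 reversed. With totals in place of TMM the median of all entries moved to 0.22 in Sst vs. Thy1, 0.59 in Sst+Nic vs. Thy1+Nic, 0.27 in Sst+Nic vs. Sst, -0.11 in Thy1+Nic vs. Thy1 and 0.30 in the interaction, and the values that reversed were Usp16 in Sst+Nic vs. Thy1+Nic (0.0086), Hspa13 (0.14), Usp16 (0.093), Cct8 (0.19) and Bach1 (0.090) in Sst+Nic vs. Sst, and Cct8 in the interaction (0.16). With position-checked entries only, Hspa13 (0.0018) and Cct8 (0.050) reversed in Sst+Nic vs. Sst. Same-numbered libraries did not deviate together (correlations -0.105 to 0.0264 over 8 pairs of libraries), so the number is not taken as a pairing. With the replicate block Hspa13 (0.029), Nrip1 (0.48) and Cct8 (0.0040) reversed in Sst+Nic vs. Sst, Usp16 in Thy1+Nic vs. Thy1 (0.03) and Usp16 in the interaction (-0.34), and it changed the call of none of the 9 genes. The cause of the reversals was not tested. Over all entries 109 were called in Sst vs. Thy1, against 551 with DESeq2, 454 without a filter, 266 with at least 10 counts in a library, 59 with the block and 33 to 55 with 1 library left out. In Sst+Nic vs. Thy1+Nic 33 were called (15 higher and 18 lower in Sst+Nic), against 24 with totals in place of TMM (17 higher and 7 lower), 496 with DESeq2, 356 without a filter, 275 with at least 10 counts, 105 with all libraries in 1 fit, 9 with the block and 0 to 56 with 1 library left out.

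With 1 library left out, some values changed sign within these ranges. They were -0.00037 to 0.62 for Hspa13 in Sst vs. Thy1 and -0.22 to 0.39 for Usp25 in Sst+Nic vs. Thy1+Nic. In Sst+Nic vs. Sst they were -0.38 to 0.13 for Hspa13, -0.55 to 0.52 for Nrip1, -0.15 to 1.90 for Jam2, -0.18 to 0.061 for Cct8, -0.52 to 0.14 for Usp16, -0.81 to 0.34 for Bach1 and -0.55 to 3.21 for Btg3. In Thy1+Nic vs. Thy1 they were -1.02 to 0.80 for Nrip1, -0.46 to 0.35 for Btg3, -0.47 to 0.038 for Usp16 and -0.21 to 0.35 for Cct8. In the interaction they were -0.31 to 0.34 for Usp16, -1.01 to 0.92 for Nrip1, -0.39 to 3.34 for Btg3, -0.024 to 0.59 for Hspa13, -2.08 to 0.044 for Gabpa and -0.36 to 0.16 for Cct8. Where only 1 library of a group was left, it was assumed to vary like the other group.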
